A study of Mus musculus with 6 samples.

Results

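Nonsense-mediated decay factors are the proteins that recognise and destroy messenger RNAs on which translation stops too early. The 9 factors described here, Upf1, Upf2, Upf3a, Upf3b, Smg1, Smg5, Smg6, Smg8 and Smg9, were taken by name from the 23420 rows of a gene count table. Their splice junctions were taken from a junction list of each library. The factors, and the related gene lists used below, were chosen with earlier results of these data known. All 9 had enough reads to be tested among the 16067 genes tested, and 314 of the 419327 junctions with reads lay inside them. None of the 9 transcripts passed the test for a difference after loss of the splicing factor RBM17 in Purkinje neurons, and for each factor the 95% interval of the change in gene counts stayed within 1.5-fold in either direction; from junction reads it did so for 7 of the 9.

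RNA on ribosomes was collected by BacTRAP: a ribosomal protein carrying GFP, made here under the Purkinje cell promoter Pcp2, is pulled down with the RNA it is translating. The 3 conditional knockout (cKO) mice were of the genotype Pcp2-BacTRAP; Pcp2-Cre; Rbm17 f/-, so that 1 Rbm17 allele was floxed and the other null. The 3 control mice were Pcp2-BacTrap; Rbm17 f/+, with a floxed and a wild-type allele and no Cre. All were C57BL/6 mice at 4 weeks of age, 1 cerebellum was used per pull-down, and cDNA was amplified from 10 ng of RNA. The series title names cryptic splicing upon loss of RBM17, and the comparison here asks whether the decay machinery itself differed in level or in splicing between these genotypes. The controls carried neither Cre nor a null allele, so effects of these and of losing RBM17 cannot be told apart.

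Each library held 140110897 to 160571518 gene counts, of which the ribosomal RNA precursor Rn45s took 9.56% to 13.5%. The deleted gene Rbm17 stood at 25.7, 25.6 and 26.3 CPM (counts per 1e+06 counts, on scaled library sizes) in cKO and 41.2, 42.5 and 41.3 CPM in control, so every cKO library lay below every control library. Its log2 fold change of -0.69 had an SE of 0.09 and an adjusted p of 0.0016 (edgeR). Markers of other cell types were detected beside those of Purkinje cells, and the levels of both differed between genotypes. The summed level of 10 Purkinje cell markers was 18157 to 21197 CPM in cKO and 30600.3 to 40804 CPM in control, and 7 of the 10 fell. For 10 microglia markers the sum was 71.6 to 117 CPM in cKO and 34.6 to 52.6 CPM in control, and 5 of the 10 rose. Of 8 markers of astrocytes and Bergmann glia 1 rose and 1 fell, with sums of 1040.2 to 1457 CPM in cKO and 1445 to 1844 CPM in control. No marker of granule cells, oligodendrocytes, interneurons or endothelium passed the test, and no marker in these 7 lists was at 0 in all libraries. Of all genes tested, 4.03% rose and 3.85% fell by that test (edgeR, adjusted p under 0.05). Decay factors are expressed in cells of all types, and in such RNA fewer cells of a type and less RNA per cell cannot be told apart. The part of the cell mixture in the values below was not tested.

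In nonsense-mediated decay, a ribosome that stops well upstream of an exon junction complex, a protein mark left by splicing, lets the RNA helicase UPF1 meet UPF2 and UPF3B, which bridge to that mark. The kinase SMG1, held in check by SMG8 and SMG9, then phosphorylates UPF1. Phosphorylated UPF1 recruits SMG5, which leads to removal of the tail and cap, and SMG6, which cuts the RNA itself. UPF3A is a paralog of UPF3B for which both a weak activating and an inhibiting role have been described. In human cells the mRNAs of several of these factors are themselves substrates of the pathway, and mutations of UPF3B cause intellectual disability. Splicing errors that introduce an early stop are among the best known sources of its substrates.

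The 9 genes lie on separate stretches of the genome (mm10, GENCODE M21). Upf1 is at chr8:70331525-70353278 on the minus strand, Upf2 at chr2:5951469-6056703 (plus), Upf3a at chr8:13785615-13799193 (plus) and Upf3b at chrX:37091678-37110322 (minus). Smg1, with 63 exons the longest transcript at 15557 bases, is at chr7:118131308-118243670 (minus), Smg8 at chr11:87077732-87086774 (minus) and Smg9 at chr7:24399619-24422778 (plus). Smg5 is at chr3:88336260-88362338 (plus) and Smg6 at chr11:74925823-75164448 (plus). Smg8 has only 4 exons, so few of its reads cross a junction.

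Alternative exon segments within the coding sequence of 4 of the factors are printed because results on splicing below turn on them. Other alternatives with junction reads are not printed, among them the Upf2 introns chr2:6040562-6046897 and chr2:6040562-6046900 and a Smg1 exon of 58 bases. Each is written 5′ to 3′ on the coding strand, from GENCODE M21 transcripts of the build mm10, with the alternative segment in capitals and 15 bases of the neighbouring exon sequence on each side in lower case. The Upf1 segment (chr8:70339982-70340014, minus strand, 33 bases) is the end of a longer exon 7 of the annotated transcript of 24 exons, in the region that encodes the regulatory loop of the helicase. The Upf3b segment (chrX:37099066-37099104, minus strand, 39 bases) is a whole annotated cassette exon. The Smg5 segment (chr3:88342523-88342564, plus strand, 42 bases) is the end of exon 3 of 22, which an unannotated donor inside the exon removes. The Smg9 segment (chr7:24405688-24405696, plus strand, 9 bases) is the start of exon 4 of 14, which an unannotated acceptor removes. The length of every printed segment is a multiple of 3, so neither form shifts the reading frame. This does not hold for all alternatives of the factors, such as the Smg1 exon of 58 bases. The Smg5 segment begins with GT, the first bases of a donor, and the Smg9 segment ends with AG, the last bases of an acceptor.
Upf1 exon 7, longer form: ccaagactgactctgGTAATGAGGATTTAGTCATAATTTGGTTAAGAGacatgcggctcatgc
Upf3b cassette exon: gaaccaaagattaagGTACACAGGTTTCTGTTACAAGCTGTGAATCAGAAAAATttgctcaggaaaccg
Smg5 exon 3, end: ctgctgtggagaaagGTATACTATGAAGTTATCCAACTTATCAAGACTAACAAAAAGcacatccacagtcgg
Smg9 exon 4, start: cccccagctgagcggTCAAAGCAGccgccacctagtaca

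Of the 9 factors, 0 were called at an adjusted p under 0.05 by the edgeR quasi-likelihood test, where 7.87% of all genes tested were called, 4.03% higher and 3.85% lower in cKO. The count was also 0 at an unadjusted p under 0.05, which 22.1% of all genes passed, and 0 by DESeq2, which called 12.7%. The log2 fold changes ran from -0.22 to 0.24, with a median of 0.04 beside 0.01 over all 16067 genes. Their median size without sign was 0.13, beside 0.21 over all genes. In 7 factors the value was above 0 and in 2, Upf2 and Smg6, below it, under each of the scalings tried. In 2 factors, Upf3a and Smg6, the libraries of cKO and control did not overlap, which 28.4% of all genes also showed.

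**Figure D1:**
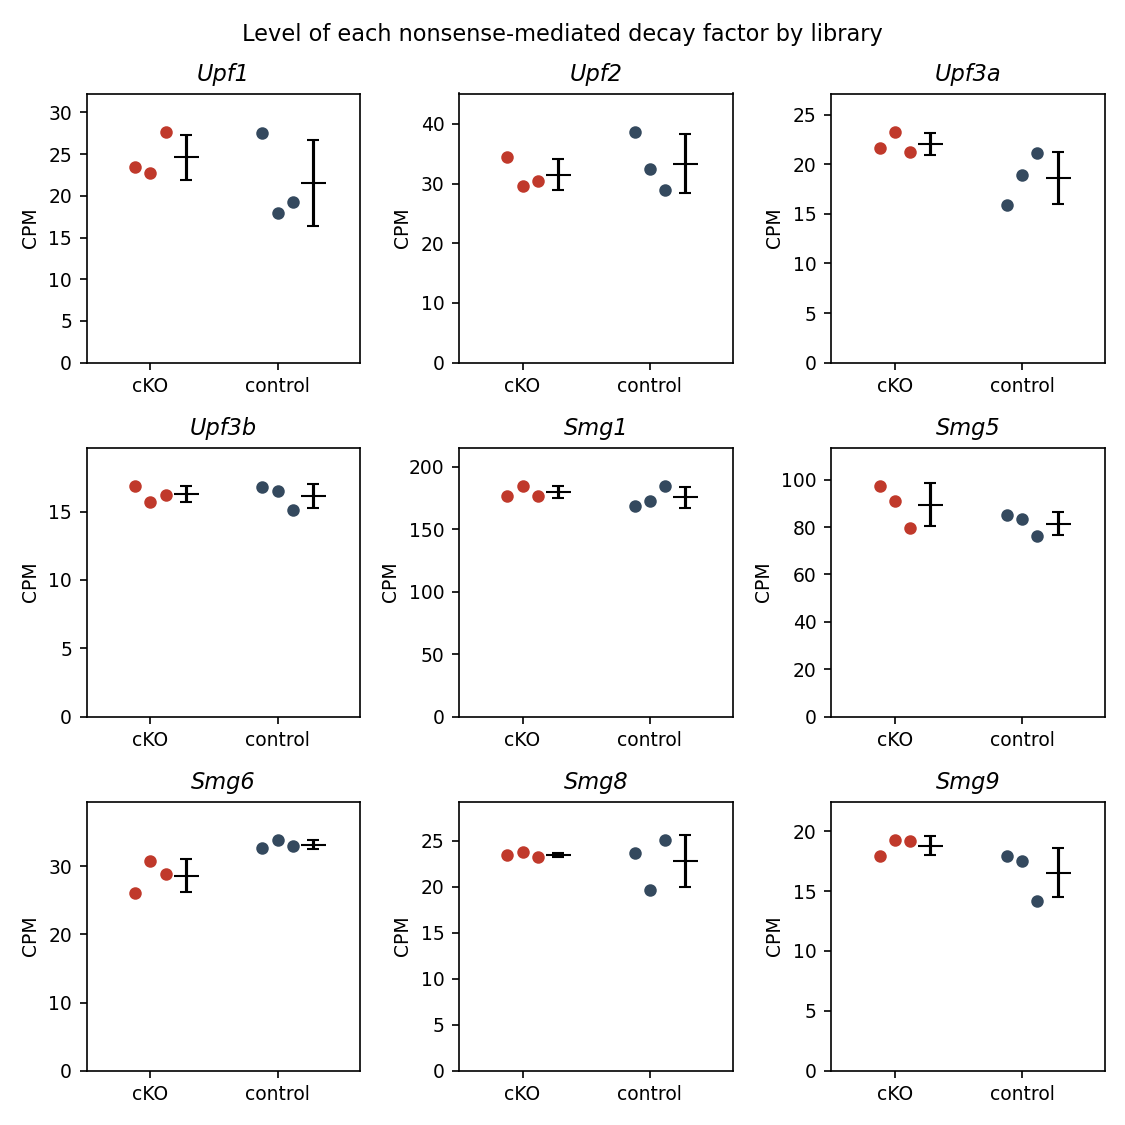
Level of each factor in CPM (vertical axes, linear and starting at 0) in the 3 cKO libraries and the 3 control libraries. Points are libraries, and the bar beside them is the mean with its SD; only Upf3a and Smg6 have groups that do not overlap.

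Upf1, the helicase at the centre of the pathway, had 23.5, 22.7 and 27.7 CPM in cKO and 27.5, 18.0 and 19.2 CPM in control. Control library 1 was close to the highest cKO library and the other control libraries were lower, so the groups overlap. The means were 24.6 ± 2.7 CPM in cKO and 21.6 ± 5.2 CPM in control (SD, n = 3 each), a log2 fold change of 0.19 (SE 0.16, 95% interval -0.17 to 0.55; edgeR quasi-likelihood test, adjusted p = 0.56). This is the widest interval of the 9 and reaches a 1.47-fold higher level in cKO. Without control library 1 the log2 fold change of Upf1 was 0.40 (edgeR, adjusted p = 0.097). Exons of Upf1 overlap those of Cers1 and Gdf1 on the opposite strand, and since the strand setting of the counting is not given in the sources used here, its gene count is uncertain. Its spliced reads, which carry the intron's own strand, gave a similar log2 fold change of 0.20 (SE 0.19).

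Upf2, the adaptor between UPF1 and the UPF3 proteins, had 34.4, 29.6 and 30.5 CPM in cKO and 38.7, 32.4 and 28.9 CPM in control. The groups overlap, with control library 1 the highest of the 6. Its log2 fold change was -0.08 (SE 0.12, 95% interval -0.36 to 0.19; edgeR, adjusted p = 0.77).

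The paralogs Upf3a and Upf3b differed from each other in pattern, although neither passed the test. Upf3a had 21.6, 23.3 and 21.2 CPM in cKO and 15.9, 18.9 and 21.1 CPM in control. Its lowest cKO library lay just above its highest control library. The log2 fold change of Upf3a, 0.24, was the highest of the 9 (SE 0.13, 95% interval -0.04 to 0.52; edgeR, unadjusted p = 0.085, adjusted p = 0.30). Upf3b had 16.9, 15.7 and 16.2 CPM in cKO and 16.8, 16.5 and 15.1 CPM in control. These 6 values are interleaved, and the log2 fold change was 0.01 (SE 0.11, 95% interval -0.24 to 0.26; edgeR, adjusted p = 0.97). Whether the change of Upf3a differs from that of Upf3b was not tested.

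Smg1, the kinase of UPF1, had 177, 185 and 177 CPM in cKO and 169, 173 and 185 CPM in control. The groups overlap and this is the narrowest interval of the 9, with a log2 fold change of 0.03 (SE 0.08, 95% interval -0.15 to 0.22; edgeR, adjusted p = 0.87). Smg8, which with Smg9 restrains the kinase, had 23.4, 23.7 and 23.2 CPM in cKO and 23.6, 19.6 and 25.1 CPM in control. All 3 cKO values fell within the control range, and the log2 fold change was 0.04 (SE 0.12, 95% interval -0.22 to 0.30; edgeR, adjusted p = 0.89). Smg9 had 17.9, 19.3 and 19.2 CPM in cKO and 17.9, 17.5 and 14.2 CPM in control. The lowest cKO library and the highest control library were both at 17.9 CPM, with a log2 fold change of 0.18 (SE 0.12, 95% interval -0.09 to 0.46; edgeR, adjusted p = 0.44).

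The factors that act on phosphorylated UPF1 had values on opposite sides of 0. Smg5, the adaptor to deadenylation and decapping, had 97.5, 91.0 and 79.8 CPM in cKO and 85.1, 83.2 and 76.2 CPM in control. The third cKO library lay among the control ones, and the log2 fold change was 0.13 (SE 0.10, 95% interval -0.09 to 0.36; edgeR, adjusted p = 0.50). Smg6, the endonuclease, had 26.0, 30.8 and 28.9 CPM in cKO and 32.6, 33.9 and 32.9 CPM in control. Every cKO library of Smg6 was below every control library. The means were 28.5 ± 2.4 CPM in cKO and 33.1 ± 0.66 CPM in control (SD, n = 3 each), and the log2 fold change was -0.22 (SE 0.10, 95% interval -0.44 to 0.01; edgeR, unadjusted p = 0.057, adjusted p = 0.24). Smg6 had the smallest unadjusted p of the 9. Exons of Smg6 overlap those of Srr and of an antisense RNA on the opposite strand, so its gene count carries the same uncertainty as that of Upf1. By spliced reads the log2 fold change of Smg6 was -0.18 (SE 0.14) and its groups overlapped.

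Reads across annotated introns, summed per gene, gave a second measure of level that does not use reads within exons. Again 0 of the 9 factors were called by the edgeR quasi-likelihood test and 0 had an unadjusted p under 0.05, while 5.72% of 14710 genes were called, 2.90% higher and 2.82% lower in cKO. The log2 fold changes from these reads ran from -0.18 for Smg6 to 0.23 for Upf3a, with a median of 0.09 beside 0.01 over all genes. Upf3b was at -0.05 here and 0.01 from gene counts, and the other 8 factors kept their sign. The interval stayed within 1.5-fold for 7 factors, and the widest reached 1.59-fold. Upf3a and Smg5 had groups that did not overlap, which 25.3% of genes showed. Smg5 had 74.1, 65.3 and 65.6 CPM of junction reads in cKO and 54.1, 64.5 and 58.0 CPM in control, a log2 fold change of 0.22 (SE 0.11; edgeR, adjusted p = 0.34).

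**Figure D2:**
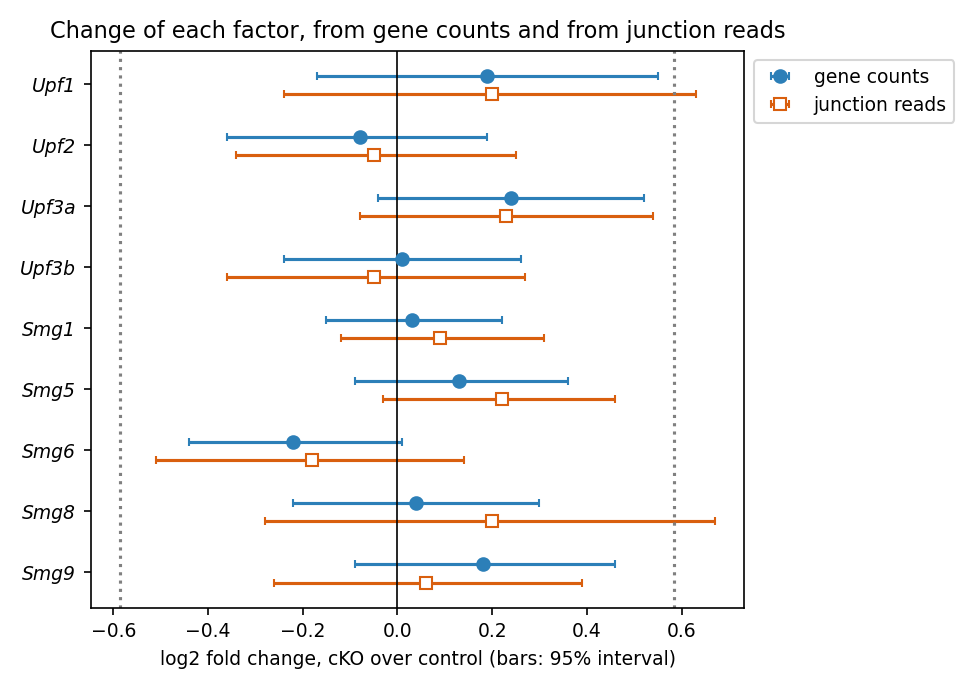
Log2 fold change of each factor, cKO over control (horizontal axis), from gene counts (filled circles) and from junction reads summed per gene (open squares), with 95% intervals. Dotted lines mark a change of 1.5-fold either way; all 9 intervals from gene counts lie between them and every interval includes 0.

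Along the transcripts, 181 annotated introns of the factors had at least 60 reads. All 3 cKO libraries were above all 3 control libraries, in reads scaled to the junction reads of the library, in 29 of them (16.0%), beside 14.2% of all introns. They were below in 3 (1.66%), beside 6.99% of all introns. Introns of a gene share its level, so they are not independent of each other. Upf3a had 5 of its 8 introns above, Smg5 9 of 22, Smg1 9 of 64, Upf1 3 of 23 and Smg9 3 of 13. Smg6 had 3 of 18 below and none above, and Upf2, Upf3b and Smg8 had no such intron among 21, 9 and 3.

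To compare the factors with each other, levels from gene counts were divided by the length of the longest coding transcript. The order therefore depends on that 1 annotated length per gene, and junction reads did not enter it. In junction reads Smg5, with 22 exons, had 65.3 to 74.1 CPM in cKO and 54.1 to 64.5 CPM in control. Smg1, with 63 exons, had 191 to 206 CPM and 175 to 207 CPM. Whether the order below holds per junction was not tested. By this measure Smg5 was the most abundant factor per kilobase in both groups, at 20.1 ± 2.0 CPM per kb in cKO and 18.3 ± 1.1 CPM per kb in control (SD, n = 3 each). Smg1 followed, at 11.5 ± 0.28 CPM per kb in cKO and 11.3 ± 0.52 CPM per kb in control. In cKO the order went on with Upf3a at 10.7, Smg9 at 8.39, Smg8 at 7.27, Upf3b at 6.94, Upf2 at 6.09, Upf1 at 5.33 and Smg6 at 4.88 CPM per kb. Neighbours whose libraries overlapped in cKO were Smg8 and Upf3b, Upf2 and Upf1, and Upf1 and Smg6. In control the order below Smg1 was Upf3a at 9.08, Smg9 at 7.38, Smg8 at 7.07, Upf3b at 6.89, Upf2 at 6.44, Smg6 at 5.67 and Upf1 at 4.67 CPM per kb, and each of these overlapped its next neighbour. The endonuclease Smg6 and the helicase Upf1 thus stood lowest in both groups, in opposite order.

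The genes whose pattern over the 6 libraries was most like the mean of the 9 factors were Ube2h, Mlst8 and Tulp4. Their root mean square differences from it were 0.015, 0.019 and 0.021 on the centred log2 CPM scale. The mean profile itself was nearly flat, at 0.03, 0.04 and 0.02 in cKO and 0.04, -0.06 and -0.07 in control, with control library 1 beside the cKO libraries.

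Splicing of the factors was examined next, junction by junction. Of 64 junctions of the factors that could be tested, 25 of them unannotated, 0 were called by edgeR's diffSpliceDGE at an adjusted p under 0.05 with a share that changed by 5 percentage points or more, where 0.751% of all 112047 junctions were called. At an unadjusted p under 0.05 there were 3, 1 each in Upf3b, Smg1 and Smg5, where 13.5% of all junctions passed. The lowest adjusted p was 0.33. A share is the reads of a junction among all reads of its cluster, in which junctions are linked by a shared donor or acceptor, directly or through another junction. Smg8 had no junction with an alternative to test. The next junctions were chosen by size of change, or, where said, after their values were seen, and none is called.

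Of the unannotated junctions taken per factor, that of Smg5 differed most in share. Its unannotated donor in exon 3 (intron chr3:88342523-88342879), which removes the Smg5 segment printed above, had 41, 29 and 22 reads in cKO and 11, 6 and 4 reads in control. Its share was 23.6%, 17.6% and 12.6% in cKO and 11.0%, 3.68% and 2.56% in control, so the lowest cKO library was just above the highest control library. The means were 17.9% ± 5.5 in cKO and 5.75% ± 4.6 in control (SD, n = 3 each), a difference of 12.2 percentage points (diffSpliceDGE, unadjusted p = 0.070, adjusted p = 0.45). A rarer unannotated Smg5 junction (chr3:88351582-88351683), named after its values were seen, had 5, 4 and 5 reads in cKO and 0 reads in each control library. That is 1.06% ± 0.082 of its cluster in cKO (SD, n = 3), where a count of 0 allows up to 0.815% to 0.917% in the control libraries (diffSpliceDGE, adjusted p = 0.34).

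Several other differences rested on 1 or a few libraries. A Smg1 junction (chr7:118136964-118139412) had 29, 0 and 3 reads in cKO and 1, 0 and 0 reads in control (diffSpliceDGE, adjusted p = 0.33). Nearly all of its reads came from cKO library 1. An Upf3b junction (chrX:37092662-37093008) had 8, 3 and 0 reads in cKO and none in the control libraries (diffSpliceDGE, adjusted p = 0.33). The third cKO library, at 0, was like the controls. In Smg6 an unannotated donor joined to the acceptor of the first annotated intron (chr11:74928766-74928992) had 3, 8 and 37 reads in cKO and 12, 22 and 0 reads in control, which spans the whole range in each group. The Smg9 acceptor that removes the segment printed above (intron chr7:24405602-24405696) had 13, 6 and 20 reads in cKO and 0, 5 and 10 reads in control, shares of 4.07% ± 2.0 in cKO and 2.00% ± 2.1 in control (SD, n = 3 each). These groups overlap (diffSpliceDGE, adjusted p = 1.00). The cluster also holds downstream introns that share no end with it. Among the 3 junctions that share an end, a denominator chosen after the values were seen, the Smg9 acceptor took 21.6% ± 6.7 in cKO and 15.3% ± 16 in control (SD, n = 3 each), again with overlap.

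In Upf2 an unannotated donor was joined to the acceptor of the first annotated intron (intron chr2:5952622-5957470), with 28, 41 and 39 reads in cKO and 30, 46 and 15 reads in control. Its share was 60.9% in cKO library 1 and 50.6% in cKO library 3, with cKO library 2 slightly lower still. In control it was 46.2%, 48.4% and 33.3%. The groups did not overlap, but the lowest cKO library lay just above the highest control library. The cluster held only 45 to 95 reads per library. The means were 53.8% ± 6.1 in cKO and 42.6% ± 8.1 in control (SD, n = 3 each), a difference of 11.2 points (diffSpliceDGE, adjusted p = 1.00). This junction, which is not in the annotation used, carried a large share in both genotypes. Upf1 (intron chr8:70332373-70332619) had 0, 0 and 4 reads in cKO and 1, 2 and 3 reads in control on its junction. Upf3a (intron chr8:13797920-13798176) had 15, 2 and 0 reads in cKO and 7, 2 and 13 reads in control. In both Upf1 and Upf3a the groups overlap.

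Annotated alternatives were then measured as inclusion. For the Upf3b and Smg1 exons, the mean of the reads into and out of the exon was set against those that skip it. For Upf1, reads from the donor of the longer form were set against those from the donor of the shorter form. These 3 alternatives were chosen after their values were seen, and 3 libraries against 3 cannot give an exact permutation p below 0.10. The Upf3b cassette exon printed above was included in 13.2%, 9.09% and 30.2% of transcripts in cKO and 2.44%, 13.8% and 0.990% in control. Control library 2 lay between the cKO libraries, so the groups overlap. Few reads carry these values. Into the exon there were 8, 6 and 21 reads in cKO and 0, 5 and 0 in control. Out of the exon there were 10, 7 and 24 reads in cKO and 3, 10 and 1 in control. The reads that skip it numbered 59, 65 and 52 in cKO and 60, 47 and 50 in control. The means were 17.5% ± 11 in cKO and 5.73% ± 7.0 in control (SD, n = 3 each; two-sided exact permutation p = 0.30). A Smg1 exon of 58 bases near its start (chr7:118217720-118217777, minus strand) was included in 38.5%, 45.2% and 41.4% in cKO and 12.5%, 23.9% and 52.8% in control. Control library 3 had the highest inclusion of all, and the two-sided exact permutation p was 0.40. The longer form of Upf1 exon 7, which the printed Upf1 segment extends, made up 8.51%, 19.5% and 16.1% in cKO and 9.76%, 14.6% and 17.4% in control. With means of 14.7% ± 5.6 in cKO and 13.9% ± 3.9 in control (SD, n = 3 each; two-sided exact permutation p = 0.80), the short form prevailed in both genotypes.

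All unannotated junctions of the 9 factors together took a slightly higher share of their junction reads in cKO. That share was 0.795%, 0.744% and 0.811% in cKO and 0.671%, 0.593% and 0.557% in control, with no overlap between the groups. The means were 0.783% ± 0.035 in cKO and 0.607% ± 0.058 in control (SD, n = 3 each), a difference of 0.176 points at the smallest p the design allows (two-sided exact permutation p = 0.10). Over 9139 genes with at least 300 junction reads in every library, the median difference was 0.21 points, with quartiles of -0.023 and 0.73, and the factors' difference lies between these quartiles. Groups without overlap were found in 26.8% of those genes, with cKO above in 24.4%. No single factor separated its groups, and the two-sided exact permutation p ran from 0.20 for Smg5 to 1.0 for Upf2 and Upf3a (n = 3 each). Smg9 had the largest difference, with 0.651%, 1.74% and 2.81% in cKO and 0.634%, 1.01% and 1.23% in control. In all junctions of the series, 2.13%, 2.03% and 2.04% of reads were unannotated in cKO and 1.52%, 1.98% and 1.69% in control.

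**Figure D3:**
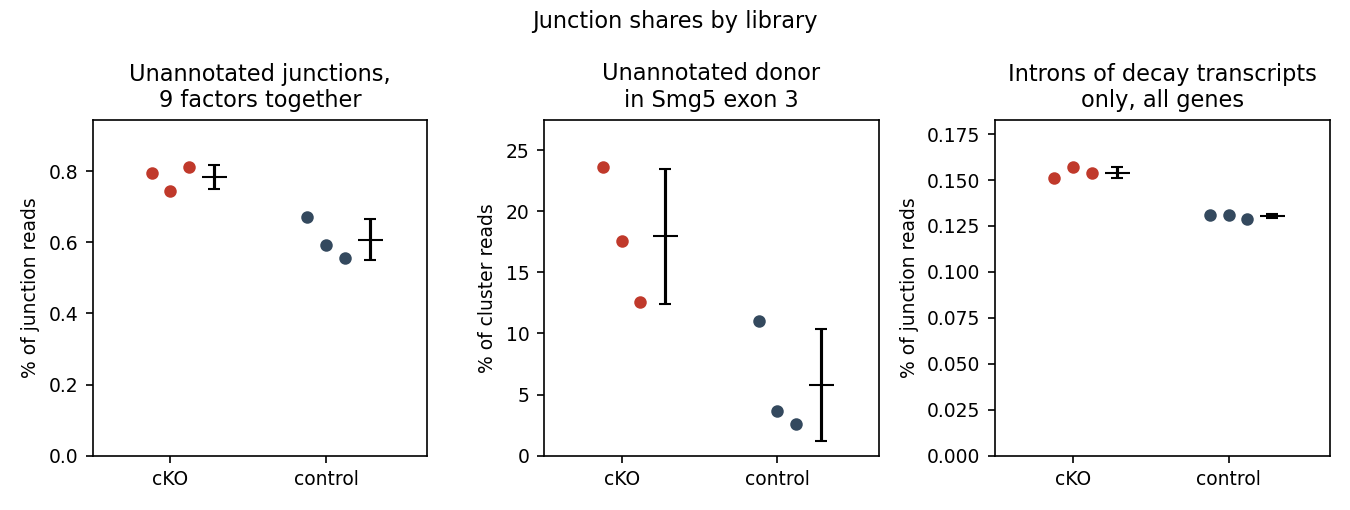
Shares of reads by library in percent (vertical axes, starting at 0), for the unannotated junctions of the 9 factors together, the unannotated donor in Smg5 exon 3 among its cluster, and introns annotated only in decay-prone transcripts of all genes. Points are libraries and bars the mean with SD. In each panel all 3 cKO libraries lie above all 3 control libraries. For the unannotated share, 24.4% of genes show this order. The Smg5 donor was chosen for its large share change and is not called (diffSpliceDGE, adjusted p = 0.45).

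Some annotated transcripts are marked in GENCODE as substrates of nonsense-mediated decay, and introns found only in these give a view of decay-prone splicing. Smg1, Smg5 and Smg6 have such a transcript, but of the factors only Smg5 had an intron of this kind with at least 10 reads in all. That intron (chr3:88347597-88349110) had 23, 12 and 28 reads in cKO and 38, 30 and 15 reads in control. Its share was 4.72% ± 1.4 in cKO and 8.64% ± 4.9 in control (SD, n = 3 each), with overlapping groups (diffSpliceDGE, adjusted p = 1.00). Over all genes, 4224 introns of this kind took 0.151%, 0.157% and 0.154% of junction reads in cKO and 0.131%, 0.131% and 0.129% in control. The difference of 0.0236 points had the smallest p the design allows (two-sided exact permutation p = 0.10, n = 3 each). Of the 2659 that could be tested as shares of their cluster, 44 rose and 3 fell (diffSpliceDGE, adjusted p under 0.05 with 5 points). For scale, 0.659% of all junctions tested rose and 0.0928% fell. The single Smg5 intron did not follow the sum over all genes, but the difference between them was not tested.

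Among 14 other genes of the pathway and of RNA decay, 1 rose and 0 fell, beside 4.03% and 3.85% of all genes. At an unadjusted p under 0.05 (edgeR) there were 4, beside 22.1% of all genes, and the median log2 fold change was 0.02. The gene that rose was Mov10, an RNA helicase that associates with UPF1. Mov10 had 8.37, 3.42 and 4.79 CPM in cKO and 1.59, 1.27 and 1.63 CPM in control, a log2 fold change of 1.89 (SE 0.33; edgeR, adjusted p = 0.0074), and it passed in all 6 fits that left out 1 library. Mov10 is also induced by interferon. The microglia markers, summed above, moved between the same groups, and their part in its rise was not tested.

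Of 12 genes of the exon junction complex and the cap-binding complex, 0 were called by edgeR, 2 had an unadjusted p under 0.05, and DESeq2 called 1. Of all genes tested, 7.87%, 22.1% and 12.7% passed these in turn. All 12 had a log2 fold change above 0 under each scaling tried, with a median of 0.15 beside 0.01 over all genes. No member passed the test. The most abundant were Rnps1, a peripheral splicing activator of the complex, with 154, 148 and 156 CPM in cKO and 150.1, 149 and 152 CPM in control, and Sap18, its partner. Sap18 had 92.0, 90.4 and 85.3 CPM in cKO and 84.1, 76.8 and 76.7 CPM in control (edgeR, adjusted p = 0.28). The groups do not overlap for Sap18, as in 28.4% of all genes, while those of Rnps1 do. Exons of Sap18 overlap Ska3 on the opposite strand.

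Of 8 genes of translation termination and the poly(A) tail, 0 were called by edgeR, 0 had an unadjusted p under 0.05 and 0 were called by DESeq2, with a median of -0.03. The shares over all genes were 7.87%, 22.1% and 12.7%. Paip2, which regulates the poly(A)-binding protein, stood at 233 ± 13 CPM in cKO and 222 ± 4.4 CPM in control (SD, n = 3 each). The scaffold Eif4g1 stood at 117 ± 11 CPM in cKO and 121 ± 12 CPM in control.

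Transcripts described as substrates of the pathway, in mouse or human cells, were a list in which genes did pass. This list was drawn up with earlier results of these data known, so its counts are no independent test of the substrates. Of the 29 genes on it 8 rose and 1 fell, beside 4.03% and 3.85% of all genes. By edgeR 13 had an unadjusted p under 0.05, beside 22.1% of all genes, and the median log2 fold change was 0.33. Of the 4 with the smallest p, described next, Cdkn1a, Ddit3 and Atf4 are also induced by other pathways. Cdkn1a, the cell cycle inhibitor p21 induced by p53, had 255, 184 and 204 CPM in cKO and 67.0, 72.5 and 72.9 CPM in control. Its log2 fold change was 1.60 (SE 0.12; edgeR, adjusted p = 1.3e-04). Ddit3, a transcription factor of the stress response, had 34.7, 24.7 and 25.3 CPM in cKO and 11.3, 8.18 and 9.31 CPM in control. Its log2 fold change was 1.56 (SE 0.17, edgeR adjusted p = 7.0e-04). Exons of Ddit3 overlap Mars and Gm4189 on the opposite strand, and those of Cdkn1a overlap AC167363.2 there. Snhg15, a host gene of small nucleolar RNA listed under the older name Gm11974, had 6.95, 7.13 and 4.82 CPM in cKO and 1.02, 1.33 and 1.64 CPM in control, a log2 fold change of 2.25 (SE 0.26; edgeR, adjusted p = 9.3e-04). Atf4, which drives the integrated stress response, had 321, 299.9 and 308 CPM in cKO and 192, 189.9 and 209 CPM in control, a log2 fold change of 0.65 (SE 0.08; edgeR, adjusted p = 0.0016). In all 4 every cKO library lies above every control library. These genes were picked for their smallest p, so the separation largely follows from that choice and is no further evidence. Groups did not overlap, in either direction, in 28.4% of all genes tested.

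The other substrates that rose were Atf3, Chac1, Gas5 and Zfas1, with log2 fold changes of 3.65, 0.97, 0.56 and 0.78, and the gene that fell was Rbm39, at -0.37. With 1 library left out, Gas5 lost its call without control library 2 (edgeR, adjusted p = 0.086) or cKO library 1 (0.060). Zfas1 lost it without control library 2 (edgeR, adjusted p = 0.067), cKO library 1 (0.060) or cKO library 3 (0.065). Rbm39 kept its call in 1 of the 6 such fits, without control library 1 (edgeR, adjusted p = 0.037), and its adjusted p ranged up to 0.095 in the other 5. Zfas1 overlaps Znfx1 on the opposite strand, and its count is uncertain for that reason. Exons of Gas5, Zfas1 and Snhg15 also overlap small nucleolar RNAs on the same strand, and their part in the counts was not tested. Splicing factors whose mRNAs carry poison exons are a classic class of substrate, to which Rbm39 also belongs. The others on the list, Srsf2, Srsf3, Srsf6, Srsf7, Tra2b, Ptbp2 and Hnrnpl, had log2 fold changes from -0.35 to 0.06, none with an adjusted p under 0.05 by edgeR. With a replicate block Srsf6, at a log2 fold change of -0.33, had an adjusted p of 0.036 (edgeR), against 0.15 without. The Purkinje and microglia marker sums given above moved between the same groups, and their part in the substrate counts was not tested.

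**Figure D4:**
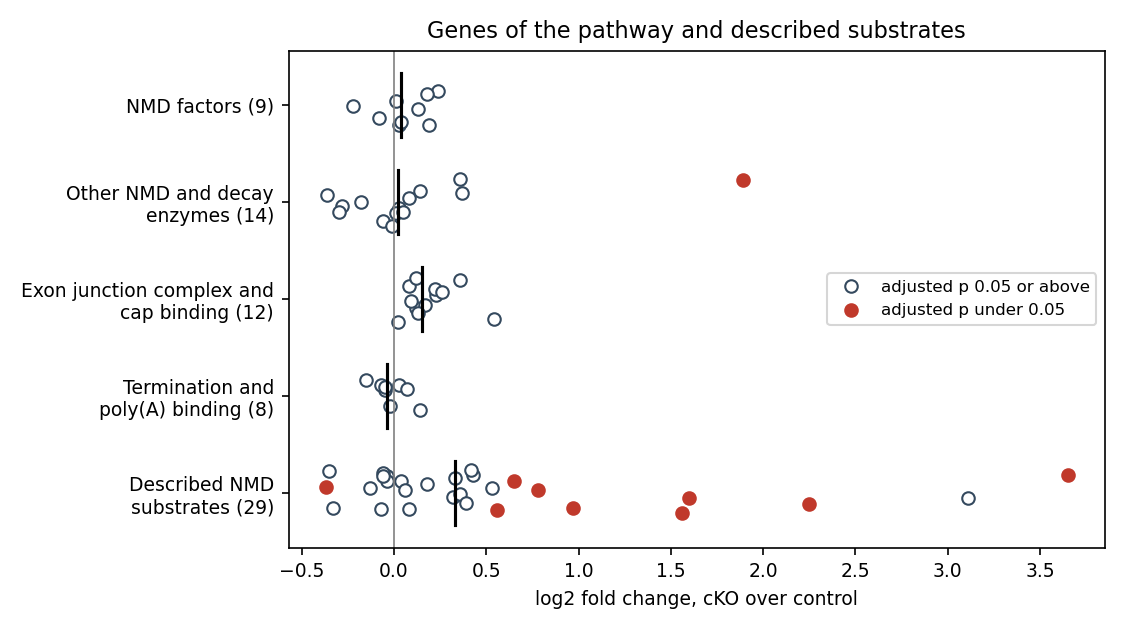
Log2 fold change, cKO over control (horizontal axis), of each gene in the 9 decay factors and 4 related gene lists, with the number of genes in brackets; vertical scatter within a list has no meaning. Filled points have an adjusted p under 0.05 and black bars are list medians, 0.04 for the 9 factors and 0.33 for the substrates.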

How the data were processed

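Raw read counts per gene of the 6 libraries were deposited by the authors in 1 table, without normalization. The authors also deposited 1 list of junctions per library with the counts of reads across each, which per the file headers TopHat wrote. TopHat2 2.1.0, HTSeq 0.6.0 and the build mm10 are named in the submitters' processing notes. The counting annotation, the strand setting and the handling of multiply aligned reads are not given in these sources. Junction reads numbered 73457422 to 83976095 per library, and 97.9% to 98.5% lay on introns of GENCODE M21, which has the same build. RNA was amplified without molecular identifiers, so limits from counts cover counting error only.

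The gene test was edgeR's (version 4.0.16, with R 4.3.3; filterByExpr, TMM, quasi-likelihood test of cKO against control, Benjamini-Hochberg over 16067 genes, threshold 0.05). Levels are CPM on TMM-scaled sizes; SE is the log2 fold change over the root of F. Junctions with at least 10 reads in all and reads in at least 2 libraries were tested with diffSpliceDGE. Shares were compared by exact permutation. The scripts were tested on simulated data. The gene test recovered 44% of 1.5-fold and 88% of 2.0-fold changes, and 6.86% of its calls were false. The junction test recovered 82% of junctions raised to a share of 10%, with 2.02% of calls false. Those junctions came from well-covered clusters only, so recovery in clusters with few reads, as in some factors, was not tested. The 9 factors and the gene lists were chosen with earlier results of these data known. Of the list symbols, 4 were matched through older names. The genes named are the 9 factors, up to 4 called genes with the smallest p of each list or its 2 most abundant genes where no gene passed, and the 3 genes most alike with a mean of at least 10 CPM. The junctions named are called ones, the unannotated one with the largest share change per factor, and introns of decay transcripts with at least 10 reads. Other genes or junctions named, among them the splicing factors, were chosen after their values were seen. The alternatives were other scalings, filters, tools (DESeq2 1.42.0, limma-voom 3.58.1) and minima, a replicate block and each library left out. Same-numbered libraries did not deviate together, so the main fit has no block.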

Additional observations from a re-analysis of the deposited data

How the results depend on the processing

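Of the values recomputed under alternatives, 350 were classed as kept, 7 as moved and 19 as changed in sign. The kept class includes counts of called genes that changed, such as 6 substrates in place of 9 without control library 2. Genes therefore crossed the threshold in some of these runs. The count of factors called stayed at 0 in each alternative run, as did the count of their junctions, and the lowest adjusted p over the 9 factors and 13 alternatives each was 0.097. Called genes among the other decay genes numbered 2 in place of 1 with DESeq2, limma-voom and the replicate block, in each case with Dcp2 added, and 1 to 2 with a library left out. DESeq2 called 1 gene of the exon junction complex, Magoh, which has a near-identical copy, Magohb, that could share its reads. Replicate numbers did not pair the libraries (correlations of same-numbered deviations 0.0446, -0.0616 and 0.0206); with the replicate block 0 factors and 12 list genes were called, with Dcp2 and Srsf6 added to the 10 without it. A share among junctions that share an end, added after the data were seen, moved the difference of the Smg9 acceptor to 6.31 points, against 2.07 over its cluster. With a library left out the list count ran from 7 to 11 and that of substrates from 6 to 9. The sign was not stable for small log2 fold changes: with a library left out Upf2 ran from -0.20 to 0.04, Upf3b from -0.05 to 0.04 and Smg8 from -0.07 to 0.10, and from junction reads Upf2 from -0.12 to 0.06, Upf3b from -0.13 to 0.04 and Smg9 from -0.06 to 0.18. The difference in unannotated share ran from -0.0440 to 0.476 points for Upf1, -0.256 to 0.398 for Upf2, -0.296 to 0.330 for Upf3a, -0.0111 to 0.543 for Upf3b and -0.0288 to 0.840 for Smg6, and was -0.0260 for Upf2 with only junctions of at least 3 reads in a library. For all factors together it stayed between 0.151 and 0.208. The causes were not tested.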
